A study of Mus musculus with 8 samples.

Results

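The 9 genes described here encode NKp46 (Ncr1), an activating receptor of natural killer (NK) cells, the adaptor chains and the kinase through which such receptors signal, and a few surface proteins and adaptors that act beside them. They were chosen by name, by a rule that used no measured value, but with earlier results of these data known. They are Ncr1, Tyrobp, Fcer1g, Hcst, Syk, Fcgr3, Sh2d1b1, Cd226 and Cd7, 9 of the 47493 genes in the table. Of these, 8 reached 1 FPKM on average over the 8 libraries and were tested, and Sh2d1b1 lay under that filter. FPKM is a fragment value divided by transcript length and library size, so levels of different genes can be set side by side.

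The libraries came from 4 female C57BL/6 mice, aged 6 to 8 weeks at the start, that all had the same regimen. Each received 200000 B16F10 melanoma cells into the skin on day 0, cyclophosphamide (300 mg/kg) on day 3, 2000000 Thy1.1 Pmel-1 cells (transgenic CD8+ T cells against the melanoma antigen gp100) on day 5, IL-2 (10000 IU) daily for 3 days from day 5, and the anti-CD4 antibody GK1.5 (200 μg) every week for 3 weeks from day 10. On day 25 the Thy1.1-negative, endogenous CD8+ T cells of the inguinal lymph nodes and spleen were purified with an isolation kit and beads. Cells bound by an antibody against IL-18Rα were then held on a magnetic column (the IL-18Rαhi-enriched fraction, n = 4), and what passed the column was the control (the flow-through fraction, n = 4). Both fractions of a mouse carry the same number, no mouse went without the regimen, and a column enriches a fraction without making it pure. The label held for the selected receptor, since Il18r1, which encodes IL-18Rα, lay between 22.2 and 37.2 FPKM in the flow-through libraries and between 106.6 and 116.0 FPKM in the enriched ones, and Cd8a was present in all 8 libraries at 179.2 to 385.0 FPKM. The FPKM of a library summed to between 656715 and 711678, and such values carry no exact depth.

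NKp46 has a short tail that cannot signal alone. It pairs in the membrane with FcRγ (the product of Fcer1g) or CD3ζ (Cd247), whose tails carry ITAMs, motifs in which a pair of tyrosines each stand 3 residues before a leucine or isoleucine. Src-family kinases phosphorylate both tyrosines, and the doubly phosphorylated motif is bound by the tandem SH2 domains of Syk or ZAP-70. DAP12 (Tyrobp) is a further ITAM adaptor, used by activating Ly49 receptors, NKG2C and many myeloid receptors, whereas DAP10 (Hcst) carries a motif for phosphoinositide 3-kinase and serves NKG2D.

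The motifs that set these adaptors apart are shown as their coding bases, read 5′ to 3′ from the GENCODE release M21 transcripts of the mm10 genome, with capitals for the codons of the tyrosines and of the leucine, isoleucine or methionine 3 residues on. Tyrobp-201 and Fcer1g-201 encode 1 ITAM each (Fcer1g-203, a reading of 92 residues, encodes 0), the 164-residue reading of Cd247 encodes 3 (other readings encode 2), and Hcst encodes none.
Tyrobp (exons 4 and 5, chr7:30415670-30417382, plus strand, residues 92 to 106 of 114): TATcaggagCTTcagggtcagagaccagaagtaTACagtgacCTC
Fcer1g (exons 4 and 5, chr1:171229889-171230072, minus strand, residues 65 to 79 of 86): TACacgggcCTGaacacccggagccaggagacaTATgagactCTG
Cd247, first ITAM (exons 3 and 4, chr1:165856451-165857454, plus strand, residues 72 to 86 of 164): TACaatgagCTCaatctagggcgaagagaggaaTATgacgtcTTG
Hcst, phosphoinositide 3-kinase motif (exon 4, chr7:30417821-30417832, minus strand, residues 72 to 75 of 79): TACatcaacATG
In Tyrobp, Fcer1g and the first motif of Cd247 the ITAM is split by an intron and spans 45 coding bases, while the motif of Hcst takes 12 bases in a single exon. Tyrobp and Hcst are neighbours on chromosome 7 that run toward each other, and 126 bases lie between their 3′ ends. The paired reads were made with a stranded kit but, by the default of the counting program, assigned without using strand, which leaves genes this close, and paralogs, less certain than others.

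Promoter windows of 250 bases before the start of transcription, from RefSeq on GRCm38.p6, were on hand for 6 of the 9 genes (Ncr1, Fcer1g, Hcst, Syk, Fcgr3 and Sh2d1b1). The windows of Ncr1 and Sh2d1b1 are shown because these were the ones that held the core of both RUNX (TGTGGT) and T-box (GTGTGA) sites on either strand, in capitals.
Ncr1 (chr7:4337474-4337723, plus strand): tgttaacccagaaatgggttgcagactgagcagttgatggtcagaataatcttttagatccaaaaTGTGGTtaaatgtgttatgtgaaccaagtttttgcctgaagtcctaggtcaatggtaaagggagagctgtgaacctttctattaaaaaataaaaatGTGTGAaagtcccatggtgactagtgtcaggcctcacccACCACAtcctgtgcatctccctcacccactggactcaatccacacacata
Sh2d1b1 (chr1:170277068-170277317, plus strand): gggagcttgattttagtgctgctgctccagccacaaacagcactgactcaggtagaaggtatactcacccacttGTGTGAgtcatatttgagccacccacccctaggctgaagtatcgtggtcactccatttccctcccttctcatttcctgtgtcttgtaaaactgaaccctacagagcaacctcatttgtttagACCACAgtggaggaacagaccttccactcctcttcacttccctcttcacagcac
The Ncr1 window held 2 RUNX cores and 1 T-box core, and that of Sh2d1b1 held 1 of each, with no match overlapping another. Of all 32851 windows of this length, 14% held a RUNX core and 12.3% a T-box core. The ETS core AGGAAG, present in 29.5% of windows, was found in those of Fcer1g, Fcgr3 and Hcst and not in those of Ncr1, Sh2d1b1 and Syk. These are matches of letters and say nothing of binding.

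The comparison asked which of these genes were at a different level in the IL-18Rαhi-enriched cells than in the cells left in the flow-through. Ncr1, Fcer1g, Cd226 and Cd7 were higher in the enriched fraction and none of the 9 was lower. Ncr1 rose the most, with a mean of 1.66 ± 0.93 FPKM (SD, n = 4) in the flow-through and 16.8 ± 8.5 FPKM (SD, n = 4) in the enriched libraries, followed by Cd7, which rose from 187 ± 59 to 559 ± 61 FPKM. The 4 called genes stood among 8 tested, where 14.1% of all 12166 genes tested were called higher and 13.7% lower (limma on log2(FPKM + 1), Benjamini-Hochberg adjusted p under 0.05). When the mouse was added as a block, 7 of the 8 were called higher, all but Syk, against 22.2% of all genes. Every gene of the 9 except Syk was higher in the enriched library of all 4 mice, and 29.2% of the genes tested were. Because whole fractions were sequenced, a larger share of cells that express a gene and more of its RNA per cell cannot be told apart.

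**Figure D1:**
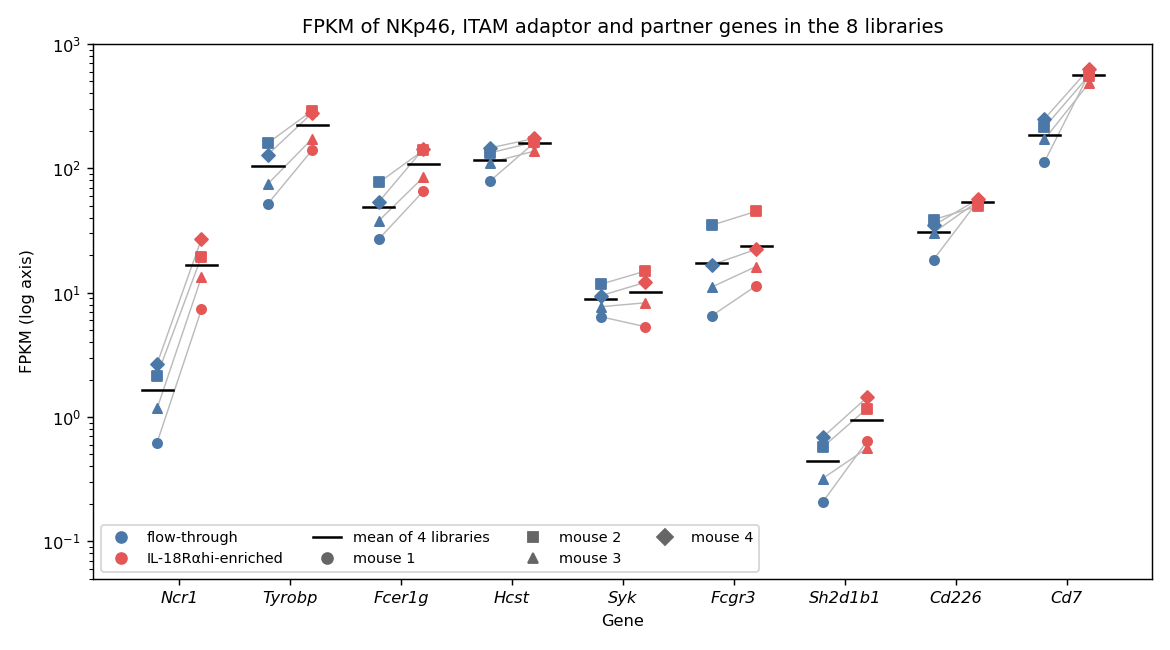
FPKM of the 9 genes (log axis) in the flow-through (blue) and IL-18Rαhi-enriched (red) library of each of 4 mice; symbols mark the mouse, grey lines join the libraries of a mouse and black bars are means of 4. Ncr1, Cd226 and Cd7 have no overlap between the fractions, and Syk falls in mouse 1 (6.41 to 5.33 FPKM) while it is higher in the enriched library of the other mice.

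Ncr1 (ENSMUSG00000062524, chr7:4337724-4345164, plus strand) was low in the flow-through. Its level there was 0.62, 2.15, 1.17 and 2.68 FPKM in mice 1 to 4, and 7.33, 19.5, 13.3 and 27.1 FPKM in the enriched library of the same mice. The fractions did not overlap, and both ranked the mice in the same order, mouse 1 lowest and mouse 4 highest. Within a mouse the enriched library held 9.06 to 11.8 times the flow-through level, the narrowest spread of the 9 genes on the log scale (SD 0.17). The difference on the log2(FPKM + 1) scale, which understates genes of low level, came to 2.68 ± 0.39 (SE, limma adjusted p = 0.0027), rank 1 of all genes tested, and the call held in all 19 alternative fits (adjusted p at most 0.041).

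Tyrobp (ENSMUSG00000030579), which encodes DAP12, was present at high level in both fractions. The flow-through libraries held 52.0, 160.1, 75.1 and 129.1 FPKM and the enriched ones 141.0, 291.2, 173.6 and 279.4 FPKM in mice 1 to 4. The fractions overlapped, since the flow-through library of mouse 2 lay above the enriched library of mouse 1, yet each mouse had more in its enriched library, by 1.82 to 2.71 times. On the same log2 scale Tyrobp differed by 1.15 ± 0.38 (SE), with a limma adjusted p of 0.053 without the block and 0.00041 with it. Mice differed 3.08-fold in the flow-through and 2.07-fold in the enriched fraction, against 2.13-fold between the means of the fractions.

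Fcer1g (ENSMUSG00000058715, chr1:171229572-171234365, minus strand), the FcRγ chain that NKp46 and Fc receptors share, followed Tyrobp closely. Its FPKM in mice 1 to 4 was 27.1, 76.9, 38.0 and 53.9 in the flow-through and 65.3, 139.5, 84.7 and 142.6 in the enriched fraction. Again mouse 2 of the flow-through lay above mouse 1 of the enriched libraries, and again each mouse was higher in its enriched library, by 1.81 to 2.64 times. Fcer1g differed by 1.15 ± 0.36 (SE) in log2, at a limma adjusted p of 0.042 (0.00038 with the block). The call without the block was lost when any library other than flow-through replicate 2 and enriched replicate 1 was left out, with adjusted p up to 0.112 in those fits.

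Hcst (ENSMUSG00000064109), which encodes DAP10, differed less between the fractions than Tyrobp and Fcer1g by estimate. It stood at 78.7, 133.0, 111.0 and 145.9 FPKM in the flow-through and at 160.5, 162.3, 137.5 and 173.7 FPKM in the enriched libraries. Mouse 1 had 2.04 times as much in its enriched library, and the other mice 1.19 to 1.24 times. In log2 this was 0.47 ± 0.18 (SE), which missed the threshold without the block (limma adjusted p = 0.088) and passed it with the block (0.030).

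Syk (ENSMUSG00000021457), the kinase that reads ITAMs in NK, B and myeloid cells, was low and did not pass the test. Its level was 6.41, 11.7, 7.71 and 9.46 FPKM in the flow-through and 5.33, 14.9, 8.29 and 12.1 FPKM in the enriched fraction, with the highest value in mouse 2 and the lowest in mouse 1 on both sides. The difference was 0.13 ± 0.29 (SE) in log2, at a limma adjusted p of 0.77 (0.38 with the block). Its T-cell counterpart Zap70 was several times more abundant, at 41.1 to 76.3 FPKM in the flow-through and 92.4 to 100.1 FPKM in the enriched libraries, a difference of 0.64 ± 0.17 (SE) in log2 (limma adjusted p = 0.026) that was seen in 4 of 4 mice. The call for Zap70 was lost after the scaling to T-cell genes described below (0.28 ± 0.14, SE, limma adjusted p = 0.15).

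Fcgr3 (ENSMUSG00000059498) encodes FcγRIII, the low-affinity IgG receptor that needs FcRγ at the surface. It varied more among mice than any other of these genes, from 6.51 FPKM in mouse 1 to 34.9 FPKM in mouse 2 in the flow-through, with 11.1 and 16.7 FPKM in mice 3 and 4. The enriched libraries held 11.3, 45.1, 16.2 and 22.3 FPKM in mice 1 to 4, and each mouse was higher in that fraction by 1.29 to 1.74 times. Fcgr3 differed by 0.50 ± 0.53 (SE) in log2, with a limma adjusted p of 0.51 without the block and 0.0040 with it. Its paralog Fcgr2b, an inhibitory receptor that shares much of its sequence, stood at 3.99 to 14.4 FPKM and 5.79 to 17.1 FPKM in the same order of fractions, and Fcgr4 was under the filter at 0.25 to 1.51 FPKM, so reads that fit more than one of these genes make their values uncertain.

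Sh2d1b1 (ENSMUSG00000102418) encodes EAT-2, a small SH2 adaptor that couples SLAM receptors to signaling in NK cells. It was the least abundant of the 9, at 0.21, 0.57, 0.32 and 0.69 FPKM in the flow-through and 0.64, 1.17, 0.56 and 1.44 FPKM in the enriched libraries. Each mouse was higher in the enriched fraction, by 1.75 to 3.09 times, but the fractions overlapped. Tested without a filter, its difference was 0.42 ± 0.17 (SE) in log2 (limma adjusted p = 0.17), and its paralog Sh2d1b2 was listed between 0 and 0.45 FPKM.

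Cd226 (ENSMUSG00000034028, on chromosome 18) encodes DNAM-1, an adhesion and activating receptor for CD155 and nectin-2 on T and NK cells. The flow-through libraries held 18.4, 38.6, 30.4 and 34.7 FPKM, and the enriched libraries 54.5, 49.7, 54.3 and 56.4 FPKM. The fractions did not overlap, and the enriched libraries differed from each other by only 1.13-fold, the smallest range of the 9 genes. Cd226 differed by 0.84 ± 0.20 (SE) in log2 (limma adjusted p = 0.017, and 0.0086 with the block). The call was lost without mouse 3 (adjusted p = 0.10) and without mouse 4 (0.064).

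Cd7 (ENSMUSG00000025163, chr11:121036747-121039418, minus strand), an immunoglobulin-family surface protein of T and NK cells, was the most abundant of the 9 in both fractions. It stood at 112.6, 213.2, 171.1 and 249.3 FPKM in the flow-through and at 569.7, 555.3, 481.4 and 629.1 FPKM in the enriched libraries. The fractions were far apart, with 5.06 times more in mouse 1 and 2.52 to 2.81 times more in the others. Cd7 differed by 1.63 ± 0.22 (SE) in log2 (limma adjusted p = 0.0021), and it too was called in all 19 alternative fits. Of its reported ligands in the mouse, Sectm1b was listed at 0 in all libraries and Sectm1a at no more than 0.26 FPKM.

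In the order of levels, Cd7 came first in both fractions and Sh2d1b1 last. Hcst and Tyrobp changed places: Hcst had the higher mean in the flow-through (117 ± 29 against 104 ± 49 FPKM) and lay above Tyrobp in 3 of 4 libraries, whereas Tyrobp had the higher mean in the enriched fraction (221 ± 75 against 159 ± 15 FPKM), also in 3 of 4 libraries. These neighbours did not differ beyond the spread of the libraries. Ncr1 moved past Syk, which stood above it in 4 of 4 flow-through libraries and below it in 4 of 4 enriched ones. All other neighbours kept their order in each library, except Fcgr3 and Ncr1 in the enriched fraction, where Fcgr3 was higher in 3 of 4. Every enriched library lay above every flow-through library for 3 of the 8 tested genes (Ncr1, Cd226 and Cd7) and for 16.4% of all genes tested.

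Among the 8 libraries, the flow-through of mouse 1 had the lowest level of each of the 9 genes but Syk, and it was also the lowest in the 8 genes of CD8 T-cell identity (Cd3d, Cd3e, Cd3g, Cd5, Cd6, Cd8a, Cd8b1 and Lck). Their summed FPKM was 1274 in that library, no more than 2390 in the rest of the flow-through and 2378 to 2570 in the enriched libraries. When each library was scaled to the same mean log level of these 8 genes, the median difference over all genes moved from -0.018 to -0.34 in log2, and the values of the 8 tested genes moved with it. Ncr1 was then at 2.44 ± 0.36 (SE, limma adjusted p = 0.0037), Cd7 at 1.27 ± 0.15 (adjusted p = 0.0015) and Cd226 at 0.49 ± 0.14 (adjusted p = 0.042). Tyrobp stood at 0.79 ± 0.29 (adjusted p = 0.086) and Fcer1g at 0.80 ± 0.30 (adjusted p = 0.084). With this scaling 3 of the 8 genes were called higher, against 4.59% of all genes, and with the block added 4 of 8 (Ncr1, Tyrobp, Fcer1g and Cd7), against 5.23%. Hcst (0.11) and Fcgr3 (0.17) were then within 1 SE of 0, and Syk (-0.19) changed sign.

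**Figure D2:**
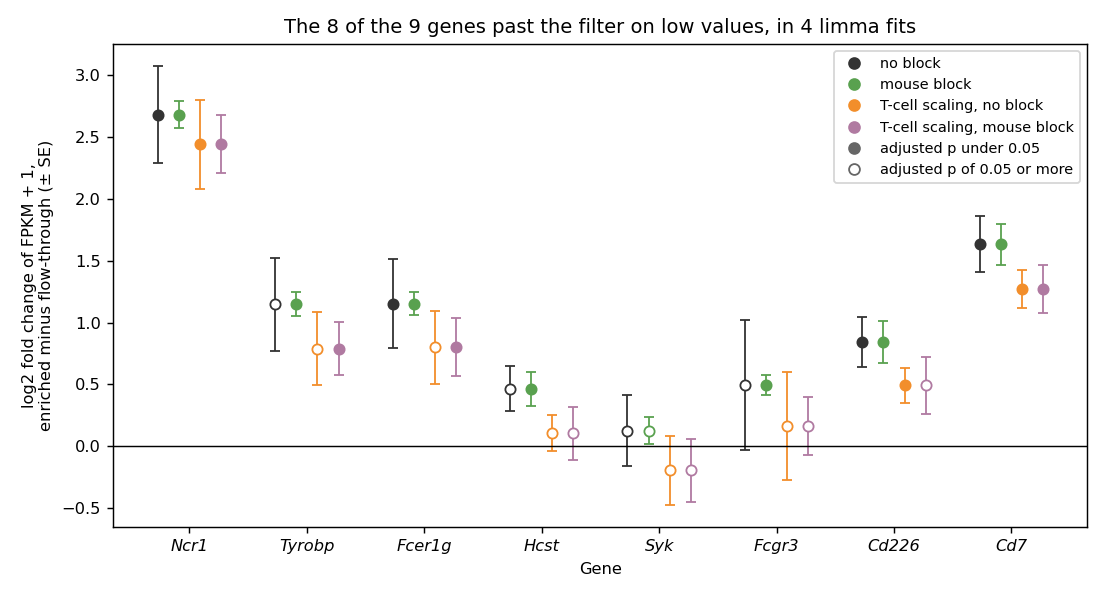
Log2 fold change of FPKM + 1 (enriched minus flow-through, ± SE) of the 8 tested genes in 4 limma fits: without and with the mouse as a block, on the deposited values and after scaling each library to 8 T-cell genes; filled symbols have an adjusted p under 0.05. Ncr1 and Cd7 are filled in all 4 fits, while Tyrobp goes from 1.15 to 0.79 and Hcst from 0.47 to 0.11 with the scaling.

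The balance between pairs of these genes was read within each library, which does not depend on scaling. Fcer1g relative to Cd247, the other ITAM chain that can pair with NKp46, was 0.42, 0.63, 0.35 and 0.42 in the flow-through of mice 1 to 4 and 0.54, 1.21, 0.73 and 1.21 in the enriched libraries. It was higher in the enriched library of 4 of 4 mice, with a difference of 0.96 in mean log2 ratio (exact two-sided permutation test, p = 0.057, adjusted over 3 ratios 0.129). Cd247 itself stood at 63.8 to 127.8 FPKM in the flow-through and 115.1 to 121.8 FPKM in the enriched fraction, a log2 difference of 0.21 (limma adjusted p = 0.47).

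Tyrobp relative to Hcst was 0.66, 1.20, 0.68 and 0.89 in the flow-through and 0.88, 1.79, 1.26 and 1.61 in the enriched libraries, again higher in 4 of 4 mice. The difference was 0.69 in mean log2 ratio (exact two-sided permutation test, p = 0.086, adjusted 0.129). Syk relative to Zap70 moved the other way, from 0.156, 0.173, 0.118 and 0.124 to 0.056, 0.161, 0.087 and 0.121, and was lower in the enriched library of 4 of 4 mice. That difference was -0.51 in mean log2 ratio, most of it from mouse 1 (exact two-sided permutation test, p = 0.23, adjusted 0.23). None of the 3 ratios passed the threshold, the smallest p that 70 arrangements allow is 0.029, and within-mouse sign flips of 4 pairs cannot go below 0.125, which each of the 3 ratios reached.

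**Figure D3:**
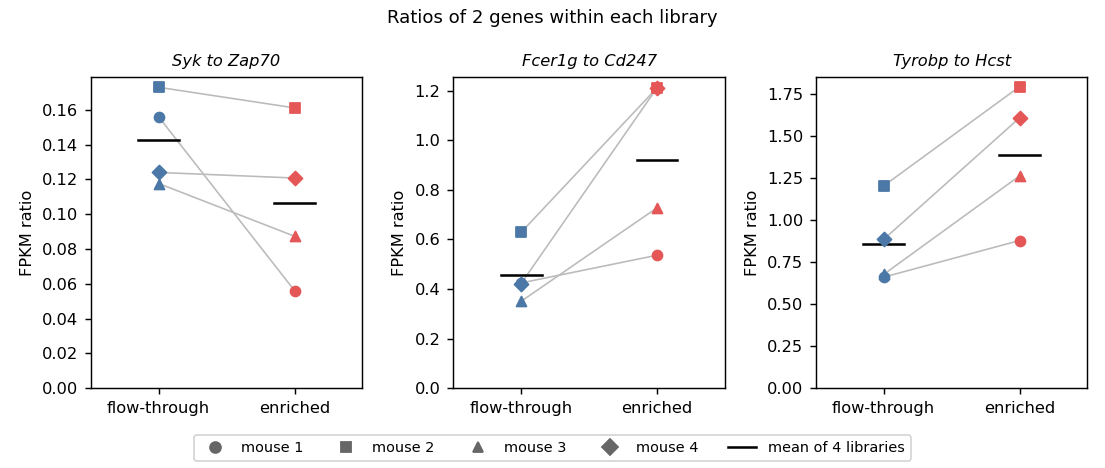
FPKM ratio of Syk to Zap70, Fcer1g to Cd247 and Tyrobp to Hcst in each library, by fraction, with lines joining the libraries of a mouse and black bars for means of 4. The first ratio is lower and the other two are higher in the enriched library of all 4 mice, with overlap between the fractions in each panel.

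Receptors that use these adaptors were read as a lymphoid and a myeloid list, and the difference between the lists was not tested. For the counts in this and the following lists, 14.1% of all genes tested were called higher and 13.7% lower, and 22.2% were called higher with the block. Of 8 lymphoid receptors, most of which pair with DAP12, DAP10 or FcRγ, 7 were tested and 6 were called higher and 0 lower, with a median of 1.39 in log2 against -0.018 over all genes. The largest were Klrb1c (NK1.1), which uses FcRγ, at 2.02 ± 0.36 (SE, limma adjusted p = 0.0058), Klrk1 (NKG2D), which uses DAP10, at 1.96 ± 0.27 (adjusted p = 0.0022), and Cd160, an NK and T-cell receptor for HVEM, at 1.42 ± 0.20 (adjusted p = 0.0024). Each was higher in 4 of 4 mice. Klrd1, the CD94 chain shared by inhibitory and activating NKG2 receptors, had a log2 fold change of 0.01 (adjusted p = 0.99) at 51.4 to 121.3 FPKM in the flow-through and 83.1 to 112.8 FPKM in the enriched libraries. Klra4 was under the filter. Such pairing is not claimed here for Cd160 or for Cd244, which signals through SAP and EAT-2. Cd244 supplies the list median (1.39) and is counted again with the SLAM receptors below. The called genes Klrc2 (NKG2C) and Klra8 stood at 1.31 and 1.24.

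Of 14 receptors of myeloid and mast cells that pair with DAP12 or FcRγ, 9 were tested. Of these 2 were called higher and none lower, against 14.1% of all genes called higher. With the block 7 were called higher, against 22.2%. Those called were Pilrb2, an activating paired immunoglobulin-like receptor, at 0.99 ± 0.21 (SE, limma adjusted p = 0.010) and Siglech, a DAP12 partner on plasmacytoid dendritic cells, at 0.96 ± 0.19 (adjusted p = 0.0079). Trem1, Fcgr4, Clec4n, Oscar and Gp6 were under the filter. The median of the 9 was 0.75 on the log2 scale.

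Among the 6 ITAM chains of the T- and B-cell receptors none was called in either direction, with a median log2 fold change of 0.27, and with the block 1, Cd79b, was called higher. Downstream of ITAMs, 9 of 26 kinases and adaptors were called higher and 1 lower (16 and 1 with the block). Among the largest rises were those of Pik3ap1 (BCAP, an adaptor for phosphoinositide 3-kinase) at 1.10 ± 0.24 (SE, limma adjusted p = 0.011) and Lcp2 (SLP-76) at 0.80 ± 0.17 (adjusted p = 0.011). Btk, the Tec-family kinase of B and myeloid cells, fell by 1.14 on the log2 scale (adjusted p = 0.0086), from 21.2 to 45.6 FPKM in the flow-through to 11.4 to 13.1 FPKM in the enriched libraries. Of 15 inhibitors of ITAM signaling 7 were called higher (12 with the block) and none lower, led by Lilrb4a at 0.95 ± 0.24 (adjusted p = 0.021), Ubash3b, a phosphatase that acts on Syk and ZAP-70, at 0.62 ± 0.19 (adjusted p = 0.042), and Cd5 at 0.60 ± 0.17 (adjusted p = 0.030). After T-cell scaling the calls higher fell to 2 of 26 kinases and adaptors and 0 of 15 inhibitors, while 6 of 7 lymphoid receptors were called higher. Of all genes tested, 4.59% were then called higher.

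Around DNAM-1, Tigit, the inhibitory receptor that competes with it for CD155, rose with it, at 1.39 ± 0.15 (SE, limma adjusted p = 0.0010), from 9.24 to 15.9 FPKM in the flow-through to 31.2 to 40.2 FPKM in the enriched libraries. Of the 5 genes listed there, 1 was called higher (3 with the block) and 1 lower, the latter being the ligand gene Nectin2, which fell by 0.99 on the log2 scale (adjusted p = 0.0062) and did not exceed 2.99 FPKM. Cd96, the third receptor of the family, was at 0.10 (adjusted p = 0.75). Around EAT-2, 4 of 7 tested SLAM receptors and SAP-family adaptors were called higher (7 with the block) and 0 lower, with the largest changes in Slamf7 (1.56 ± 0.21, adjusted p = 0.0020), Cd244 (2B4, which signals through SAP and EAT-2; 1.39 ± 0.29, adjusted p = 0.010) and Slamf1 (1.18 ± 0.18, adjusted p = 0.0035).

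**Figure D4:**
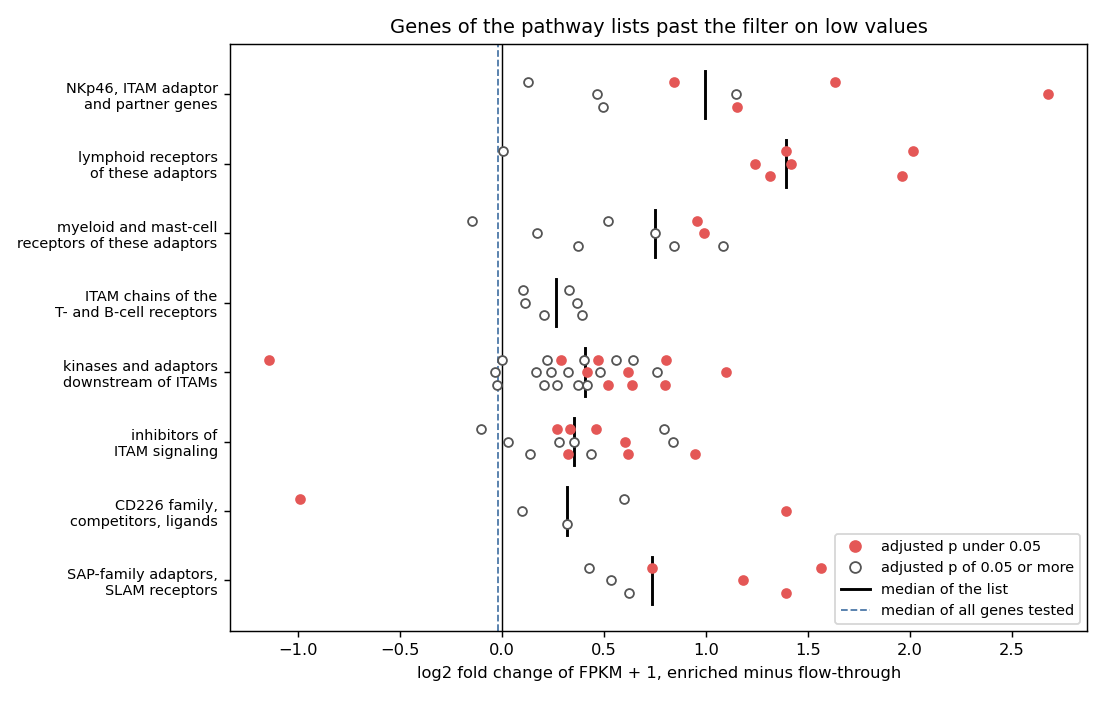
Log2 fold change of FPKM + 1 (enriched minus flow-through) of each tested gene of the 9 described and of 7 pathway lists; red symbols have a limma adjusted p under 0.05, black bars are list medians and the dashed line is the median of all genes tested (-0.018). The list of lymphoid receptors, most of which use these adaptors, has the highest median (1.39, the value of Cd244, which signals otherwise). Btk and Nectin2 are the called genes to the left of 0.

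Marker lists named after other cell types were measured beside these genes, and their part in the differences was not tested. Such markers need not be exclusive: the study reports Klrb1b and Klrb1c, both in the NK-cell list, as raised in the enriched CD8+ T cells. Which cells carried them was not measured. For the counts below, 14.1% of all genes tested were called higher and 13.7% lower, and 22.2% were called higher with the block. The summed FPKM of 12 NK-cell markers was 39.0 to 75.2 in the flow-through and 137.4 to 253.0 in the enriched libraries, 2.36 to 3.52 times higher within a mouse, and 9 of 11 tested were called higher (10 with the block). The most abundant were Gzma (granzyme A), at 8.67 to 19.9 and 51.8 to 101.9 FPKM, Prf1, which was not called, and Klrc1 (NKG2A), and no marker of the list was at 0 in any library. Myeloid markers summed to 577 to 2828 in the flow-through and 953 to 3803 in the enriched fraction, 1.27 to 1.65 times higher within a mouse, with 4 of 14 called higher. Of the most abundant, Mpo was at 252.0 to 1394 and 203.4 to 1175 FPKM and was lower in the enriched library of each mouse, Elane was not called (139.6 to 833.8 FPKM in the enriched libraries), and Lyz2, at 99.0 to 346.8 and 338.1 to 811.1 FPKM, rose by 1.41 on the log2 scale (limma adjusted p = 0.034) and differed by a larger factor than Tyrobp in each mouse. With the block, 11 of the 14 were called higher and 1, Mpo, lower.

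Mast-cell and basophil markers summed to 136.5 to 324.3 and 277.3 to 640.9 FPKM, with a within-mouse ratio of 1.98 to 2.06. That sum joins genes that moved in opposite directions. Their most abundant genes were Prss34 and Mcpt8, both proteases of basophils and both called higher (log2 fold changes 1.65 and 1.45), and Kit, which was called lower. In all, 2 of 8 were called higher (4 with the block) and 2 lower. Summed markers of γδ and innate-like T cells were 76.2 to 105.9 and 114.1 to 235.6 FPKM, with 6 of 10 called higher (9 with the block), and dendritic-cell markers were 102.8 to 139.6 and 137.1 to 197.1 FPKM, with 6 of 8 called higher. The most abundant of the former were Tcrg-C1, Tcrg-C2 and Tcrg-C4, none of them called, and of the latter Bst2, which was not called, and Itgax and Cd209a, which were called higher. B-cell markers summed to 26.5 to 69.1 and 43.0 to 92.0 FPKM (1 of 6 called higher, Cd22, and 3 with the block; Cd79b and Cd79a were the most abundant), megakaryocyte and platelet markers to 15.7 to 24.2 and 13.6 to 20.6 FPKM (Pf4, Itga2b and Gp9, 0 of 3 called, and 1 lower with the block), and erythroid markers to 825.9 to 2479 and 206.5 to 1437 FPKM (1 of 7 called lower, Car1, and 4 with the block, with Hba-a1 and Hbb-bs next in level).

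The order of the mice differed between these genes. In the flow-through Tyrobp, Fcer1g, Syk, Fcgr3 and Cd226 ranked the mice 1, 3, 4 and 2 from lowest to highest. That is also the order of the summed myeloid, mast-cell and basophil, dendritic-cell, and megakaryocyte and platelet markers. The summed list of lymphoid receptors, the genes around DNAM-1, and the SLAM receptors and SAP-family adaptors had the same order, so it is not particular to 1 cell type. Ncr1, Hcst, Sh2d1b1 and Cd7 ranked them 1, 3, 2 and 4, the order of the summed NK-cell and CD8 T-cell identity genes. The summed ITAM chains, the kinases and adaptors downstream of ITAMs, and the inhibitors of ITAM signaling shared it. This order, too, is not particular to 1 cell type. The enriched libraries did not keep this grouping, since Tyrobp, Syk and Fcgr3 ranked the mice there as before but Fcer1g ranked them 1, 3, 2 and 4, Cd226 2, 3, 1 and 4, and Cd7 3, 2, 1 and 4. These orders are descriptions of 4 mice.

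**Figure D5:**
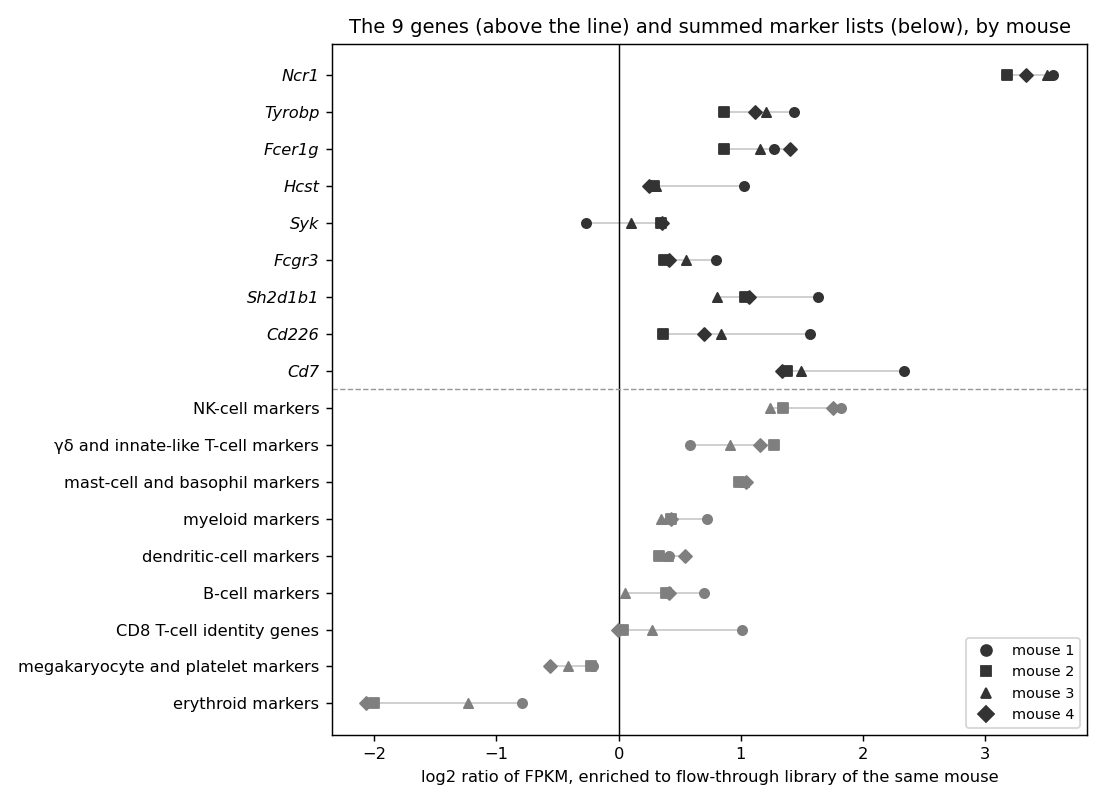
Log2 ratio of FPKM between the enriched and the flow-through library of the same mouse, for the 9 genes and for the summed FPKM of 9 marker lists, with 1 symbol per mouse. Ncr1 stands at 9.06 to 11.8 times in all mice, above the sum of each marker list. Single genes of a list can differ from its sum: in the NK-cell list the log2 fold change was 2.48 for Klrb1b and 0.08 for Eomes, against 2.68 for Ncr1. Tyrobp and Fcer1g (1.81 to 2.71 times) are above 1 in all mice. So are the sums of NK-cell, γδ and innate-like T-cell, mast-cell and basophil, myeloid (1.27 to 1.65), dendritic-cell and B-cell markers.

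Over the 8 libraries, which come from 4 mice and include the difference between the fractions, the genes most like Ncr1 in log2(FPKM + 1) among 9328 genes that averaged 5 FPKM or more were Klrb1b, an NK-cell lectin-like receptor (Pearson r = 0.997), Adam8 (0.991), Zbtb7b (0.990), Klrg1 (0.990) and Tnfrsf4 (0.988). Among the 5 most like Tyrobp were Gm26778 (r = 0.996), Asah1 (0.995), Fcer1g (0.993) and Cdkn1a (0.993), and those most like Fcer1g were Txndc5 (0.997), Asah1 (0.996), Prkcd (0.996), Tgfbi (0.994) and Tyrobp (0.993). Among the 9 genes, Ncr1 was more like Cd7 (0.949) and Fcer1g (0.920) than Syk (0.482) and Fcgr3 (0.554), and Tyrobp and Fcer1g were each in the other's top 5. Both libraries of a mouse come from the same animal, so these values describe the table and were not tested.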

How the data were processed

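RNA of both fractions of 4 mice was sequenced as paired ends of 150 bases (stranded poly(A) libraries). The authors mapped reads to mm10 with TopHat and estimated FPKM with Cufflinks 2.1.1, with multi-read and bias correction; the annotation release is not given in the sources used here. The deposited FPKM were used as they stand, and their depth is unknown. Fractions were compared with limma 3.58.1 (R 4.3.3, trend) on log2(FPKM + 1) over the 12166 genes that averaged 1 FPKM or more, without a block, adjusted by the Benjamini-Hochberg method over all genes. The fit was checked on simulated data in which each library was drawn independently, without a mouse effect or a shift shared by many genes. The check therefore does not cover such effects in these data. Equal numbers mark the same mouse in the labels, and the mouse block is given beside results it changes. Deviations from the fraction means correlated between same-numbered libraries at r = 0.31 to 0.66. Differently numbered libraries ranged from -0.60 to 0.41, the highest being flow-through 2 with enriched 4. These ranges overlap, so the correlations alone do not establish the pairing. Each mouse is 1 replicate per fraction. Ratios were tested by exact permutation (numpy 2.4.6, pandas 2.3.3). All 9 genes are described; of each pathway list, the 3 called genes with the largest change in each direction, and of each marker list, up to 3 of the most abundant, are named. Genes, lists and tests were chosen with earlier results of these data known. Other pseudocounts, filters, scalings and left-out libraries were tried. Coordinates follow GENCODE M21. A few genes that the naming rule picked are left unnamed but stay in all counts.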

Additional observations from a re-analysis of the deposited data

How the results depend on the processing

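Over all genes, 1720 were higher and 1664 lower. The replicate block gave 2705 and 2763, T-cell scaling gave 559 and 1357 and, with the block (chosen after seeing the data), 636 and 2471. Leaving out 1 library gave 1107 to 1813 higher and 939 to 1780 lower, and leaving out both libraries of mouse 2, 3 or 4 gave 1098, 447 and 851 higher and 987, 292 and 615 lower. Of the 8 tested genes, 4 were called higher, 7 with the block, 3 to 5 without 1 library, and 2 without mouse 3 and 2 without mouse 4, where fewer samples remain. Ncr1 and Cd7 were called in all 19 alternatives, Cd226 in 16, Fcer1g in 8, Tyrobp in 6, Hcst in 2, Fcgr3 in 1 and Syk in none. Syk, never called, turned to -0.19 under T-cell scaling, with and without the block, and ranged from -0.070 (without enriched replicate 2) to 0.37 when 1 library was left out; the cause was not tested. On the deposited values the replicate block changed, among the 8 tested genes, no call but those of Tyrobp, Hcst and Fcgr3; under T-cell scaling it added Tyrobp and Fcer1g and lost Cd226. Sign flips could not pass the threshold, since 4 pairs allow no p under 0.125. With 1 library left out, Fcer1g to Cd247 reached p = 0.029 (exact permutation, unadjusted) without enriched replicate 1. Its p was up to 0.114 without other libraries, and neither of the other ratios passed. FPKM without counts give no counting error, which limits Sh2d1b1 and other genes near 1 FPKM most.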
